A study of Apis mellifera ligustica with 12 samples.

Results

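The miRNAs of the untreated honeybee brain were described from the 3 CK libraries alone. These were the 3 libraries that the sample labels name CK, out of 12 in the series, and every miRNA entry listed for them was a member. Of the 1350 entries listed, 663 were counted in at least 1 CK library, 455 in all 3 and 687 in none.

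The series profiled small RNA of brain tissue of Apis mellifera ligustica, the Italian honeybee, before and after fluvalinate, a pyrethroid used in hives against mites. Each library was made from 20 brains of adult workers, foragers returning to 1 colony, so a library is the average of a pool and not of 1 bee. CK stands for untreated bees, taken here as the sampling 1 day before treatment, and the methods do not say whether the CK colonies were those set aside as controls. The treated groups D10, D20 and D30 (10, 20 and 30 days after treatment began) were not used here.

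A miRNA is a short RNA that guides an Argonaute protein to messenger RNAs and lowers their output. It is cut from a hairpin, whose left side gives the 5p and whose right side gives the 3p product, and in most hairpins a single arm is kept while the other is degraded. Target choice rests mainly on the seed, the bases near the 5′ end, so miRNAs with a shared seed are treated as a family. Insect brains express both miRNAs particular to neurons and many that occur in all tissues.

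The mature sequences of the 10 most abundant miRNAs are shown first, because they carried most of the counts. They are written 5′ to 3′ in DNA letters, as deposited, with the seed (bases 2 to 8) in capitals.
ame-miR-276-3p: tAGGAACTtcataccgtgctct
ame-miR-2796-3p: gTAGGCCGgcggaaactacttgc
ame-miR-184-3p: tGGACGGAgaactgataagggc
ame-miR-981-3p: tTCGTTGTcaacgaaacctgca
ame-miR-317-3p: tGAACACAgctggtggtatctcagt
ame-miR-252a-5p: aTAAGTACtagtgccgcaggag
ame-miR-14-3p: tCAGTCTTtttctctctccta
ame-miR-125-5p: cCCCTGAGaccctaacttgtga
ame-miR-927a-5p: tTTTAGAAttcctacgctttacc
ame-miR-11-3p: cATCACAGgcagagttctagtt

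Depth differed between the libraries. The counts on listed miRNAs were 8454313 in CK-1, 13878451 in CK-2 and 13829101 in CK-3, and 510, 582 and 578 entries were counted in them. Levels are given as CPM, the count of an entry scaled to the library's counts on listed miRNAs (counts per 1000000), so that 3 counts were worth 0.355 CPM in CK-1, 0.216 CPM in CK-2 and 0.217 CPM in CK-3. Errors are the SD over the 3 libraries. By most of the measures below, CK-2 differed more from CK-1 and CK-3 than these did from each other. The median spread and the shares of the 3 most abundant and of honeybee miRNAs are given below with and without CK-2. The scaling factors of edgeR relative to these totals were 1.025 in CK-1, 0.955 in CK-2 and 1.022 in CK-3. Dividing CPM by them would raise CK-2 and lower the other libraries, so small spreads and some orders of the libraries depend on the scaling. Only the median spread was computed with other factors. No group was compared with another, so no test was run.

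The repertoire was dominated by a few miRNAs. The 3 most abundant, ame-miR-276-3p, ame-miR-2796-3p and ame-miR-184-3p, held 60.9% of the counts in CK-1, 61.3% in CK-2 and 61.9% in CK-3 (mean 61.4% ± 0.463, n = 3). The first 10 held 82.5% ± 0.442 of a library's counts and the first 25 held 93.6% ± 0.145. Ranked within each library, 3 entries sufficed for 50% of the counts in every library, 17 or 18 for 90% and 67 to 69 for 99%. The other side of this concentration was a long tail, since 330 of the 663 counted entries had a mean below 1 CPM and together held 0.00956% of the counts.

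ame-miR-276-3p, which in flies acts on a dopamine receptor in olfactory memory, was the most abundant miRNA overall. It had 262611 CPM in CK-1, 224500 CPM in CK-2 and 259398 CPM in CK-3 (mean 248836 ± 21137). Its hairpin lies on linkage group 7 (Amel_HAv3.1, bases 10216900 to 10216983) within the span of the protein-coding gene LOC725329. ame-miR-2796-3p followed with 183967, 227200 and 191698 CPM in CK-1, CK-2 and CK-3. The order of these 2 miRNAs changed between libraries, because ame-miR-2796-3p ranked first in CK-2 and ame-miR-276-3p in the other two. The hairpin of ame-miR-2796-3p lies on linkage group 4 (bases 9019741 to 9019868) within the span of LOC408804, also protein-coding. ame-miR-184-3p, a deeply conserved miRNA that flies need for egg formation, had 162707, 161413 and 167411 CPM. It held rank 3 in every library, and its hairpin on linkage group 13 (bases 3593330 to 3593421) lies within no annotated gene.

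ame-miR-981-3p came next, at 46236 CPM in CK-1, 69027 CPM in CK-2 and 43171 CPM in CK-3. It was the miRNA above 10000 CPM that varied most, with CK-2 well above the other libraries. ame-miR-317-3p had 40601, 44887 and 42917 CPM, and ame-miR-252a-5p had 35606, 24483 and 33429 CPM in CK-1, CK-2 and CK-3. Ranks 4 to 7 were the same in all 3 libraries, although ame-miR-981-3p was highest and ame-miR-252a-5p lowest in CK-2. ame-miR-14-3p, which in flies limits cell death and fat storage, had 30207, 24379 and 30037 CPM. ame-miR-125-5p had 22118, 16561 and 22054 CPM and ame-miR-927a-5p 18792, 16321 and 17412 CPM. ame-miR-11-3p, which in flies restrains cell death, had 17509, 16065 and 17435 CPM. From ame-miR-125-5p to ame-miR-124-3p, at mean levels between 16663 and 20244 CPM, neighbouring means lay closer together than the larger of their SDs. ame-miR-125-5p was nevertheless above ame-miR-927a-5p in every library, while the order of the neighbours that follow changed between libraries.

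**Figure D1:**
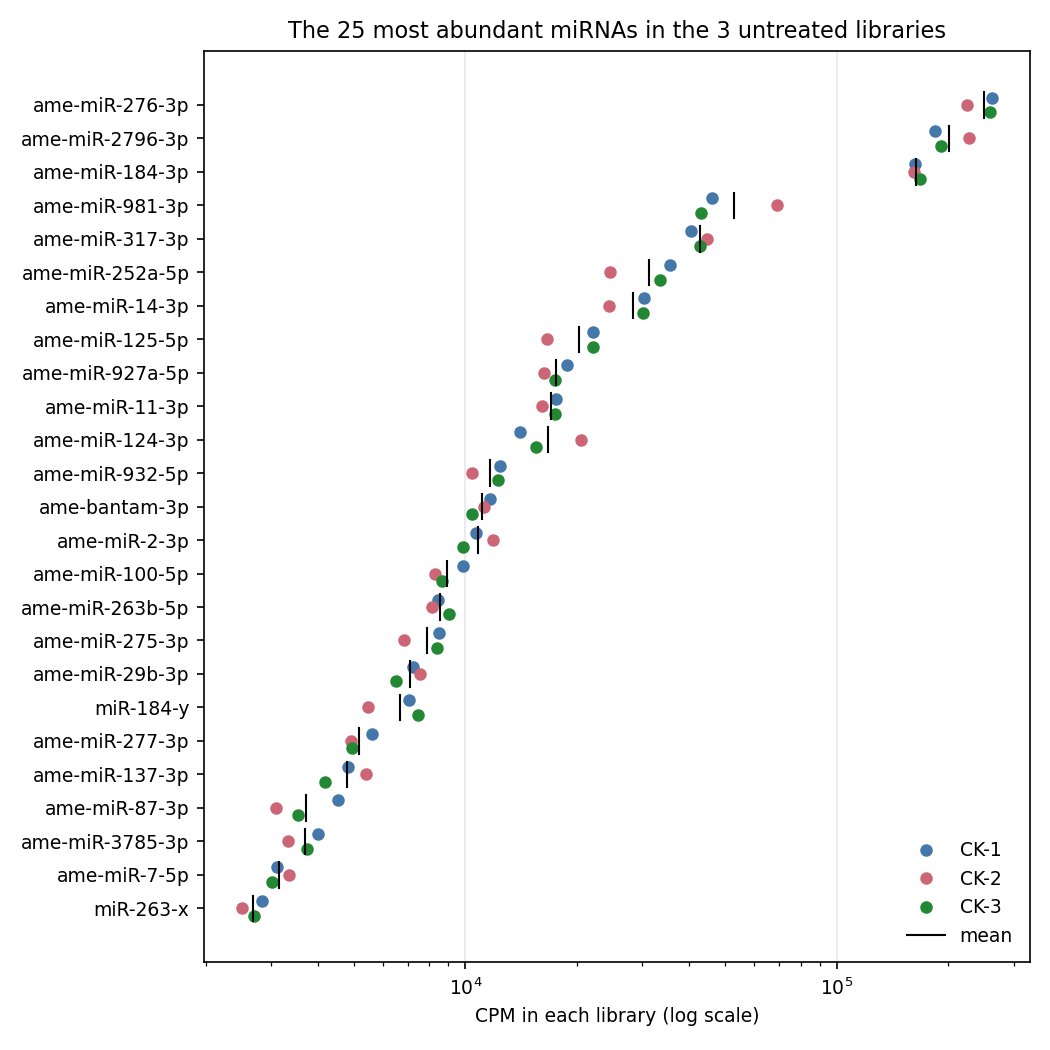
CPM of the 25 most abundant miRNA entries (log scale) in CK-1, CK-2 and CK-3, 1 point per library, with a vertical bar at the mean. By CPM, CK-2 was the lowest of the 3 libraries for 16 of the 25, and the highest for 8, among them ame-miR-2796-3p, ame-miR-981-3p and ame-miR-124-3p. The numbers 16 and 8 depend on the scaling.

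The 25 most abundant entries held 23 known honeybee miRNAs and 2 known from other species. Of the 23, 16 were 3p and 7 were 5p products. ame-miR-932-5p, which has been linked to memory formation in honeybees, averaged 11678 ± 1066 CPM. The cell growth regulator of flies ame-bantam-3p averaged 11104 ± 643 CPM, ame-miR-2-3p 10805 ± 1008 CPM and ame-miR-100-5p 8928 ± 830 CPM. These were followed by ame-miR-263b-5p, whose family protects sensory bristle cells from death in flies, at 8525 ± 458 CPM. ame-miR-275-3p, needed for egg production in mosquitoes, averaged 7895 ± 925 CPM. ame-miR-29b-3p averaged 7094 ± 527 CPM. ame-miR-277-3p, which in flies controls the breakdown of branched-chain amino acids, averaged 5159 ± 392 CPM. The end of the 25 was made up of ame-miR-137-3p, ame-miR-87-3p, ame-miR-3785-3p and ame-miR-7-5p, at 4803 ± 610, 3724 ± 742, 3694 ± 353 and 3149 ± 171 CPM. The 2 entries known from other species were miR-184-y and miR-263-x, which are described below with their honeybee counterparts.

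The entries fell into 3 classes by name. Known honeybee miRNAs (names beginning with ame) were 180 of those listed, and 168 of them were counted. Entries known from other species (names ending in x for the 5p side, y for the 3p side, or z) were 924, of which 268 were counted. Predicted hairpins gave 246, of which 227 were counted. The honeybee class took 97.3%, 97.5% and 97.2% of the counts in CK-1, CK-2 and CK-3 (mean 97.3% ± 0.162), the other-species class 2.52% ± 0.152 and the predicted class 0.135% ± 0.0122. Entries of at least 1000 CPM were 45 from the honeybee class, 6 from other species and 0 predicted.

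**Figure D2:**
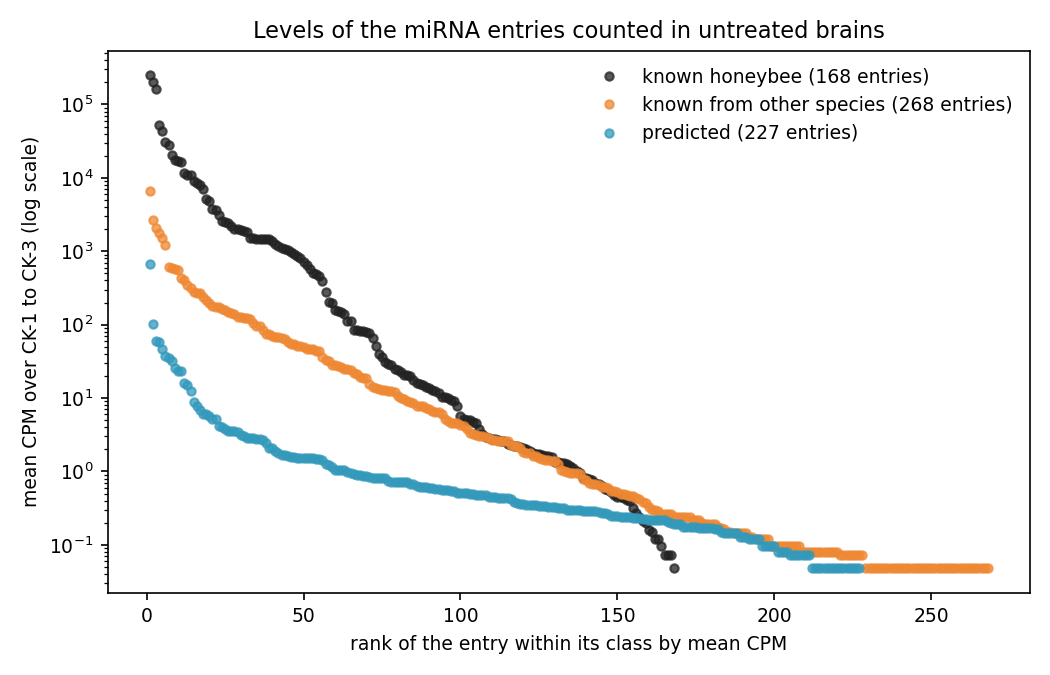
Mean CPM over the 3 CK libraries (log scale) against the rank of each counted entry within its class. The curve of the 168 honeybee miRNAs starts at 248836 CPM, that of the 268 entries from other species at 6650 CPM and that of the 227 predicted entries at 664 CPM.

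Of the honeybee miRNAs, 153 were counted in all 3 libraries and 132 had at least 10 counts in each. The 12 at 0 counts in all 3 were ame-miR-6000a-3p, ame-miR-9885-5p, ame-miR-9877-3p, ame-miR-6062-3p, ame-miR-3756-5p, ame-miR-9890-5p, ame-miR-3718b-5p, ame-miR-3747a-5p, ame-miR-9893-5p, ame-miR-2765-3p, ame-miR-9887-5p and ame-miR-9896-5p. An observed count of 0 allows an expected count of up to about 3, worth 0.355 CPM in CK-1, 0.216 CPM in CK-2 and 0.217 CPM in CK-3 (counting error only). Tags read fewer than 2 times were removed, so a 0 here can also stand for a read that was dropped. The upper limits of these miRNAs therefore lie somewhat above these values.

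The labelled tissue was set beside the miRNAs known from other tissues. The neuronal ame-miR-124-3p had 14068 CPM in CK-1, 20429 CPM in CK-2 and 15493 CPM in CK-3, and ame-miR-137-3p, neuronal in vertebrates, had 4827, 5400 and 4181 CPM. Both were highest in CK-2. ame-miR-1000-5p, which in flies acts at synapses, was far lower at 13.01, 20.03 and 15.69 CPM. The muscle miRNAs ame-miR-1-3p and ame-miR-133-3p were also counted in every library, at 2028 ± 268 and 2536 ± 270 CPM. Their sum was 5044, 4180 and 4467 CPM in CK-1, CK-2 and CK-3. It was lowest in CK-2 by CPM, but the order of CK-2 and CK-3 depends on the scaling. The sum of the 3 neuronal miRNAs, mostly ame-miR-124-3p, was highest in CK-2, at 25849 CPM against 18908 CPM in CK-1 and 19689 CPM in CK-3. The wider list of 8 neuronal and memory miRNAs, described below, went the other way. It summed to 297903, 265664 and 295300 CPM in CK-1, CK-2 and CK-3, mostly from ame-miR-276-3p. The midgut miRNAs of mosquitoes, ame-miR-281-3p, ame-miR-750-3p and ame-miR-1175-3p, summed to 106, 90.4 and 104 CPM. That sum holds the lower arm of miR-281 only, and miR-281-x from the same hairpin had 303, 214 and 200 CPM. In a bulk sample, fewer cells of a type and less RNA per cell cannot be told apart, and the part of other tissues in these levels was not tested.

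Among miRNAs with known roles in neurons and memory, 8 of 8 listed were counted in all 3 libraries. So were 153 of all 180 listed honeybee miRNAs, so this number does not set the 8 apart. The 8 spanned more than 4 orders of magnitude, with ame-miR-276-3p at the top and ame-miR-1000-5p at the bottom. ame-miR-34-5p, which protects the ageing fly brain, averaged 1981 ± 203 CPM and ame-miR-8-3p, a growth and synapse regulator in flies, 1826 ± 265 CPM. ame-miR-9a-5p, which in flies limits the number of sensory organ precursors, averaged 486 ± 45.9 CPM.

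All 9 listed miRNAs of eye and sensory organs were counted in every library, as were 153 of all 180 listed honeybee miRNAs. The sum of the 9 was 16396, 17108 and 18276 CPM in CK-1, CK-2 and CK-3. ame-miR-263b-5p was the largest member. ame-miR-263a-5p was lower at 579 ± 82.0 CPM and the photoreceptor miRNA of flies ame-miR-210-3p stood at 853 ± 93.1 CPM. ame-miR-7-5p, which drives photoreceptor fate in flies, had 3101, 3338 and 3007 CPM. The miR-279 family, which in flies shapes the neurons that sense carbon dioxide, was led by ame-miR-279a-3p at 1884, 2605 and 2801 CPM. That miRNA was lowest in CK-1. For ame-miR-279d-3p, at 1173 ± 93.2 CPM, CK-1 lay between the other libraries by CPM, a place that depends on the scaling. ame-miR-279c-3p averaged 463 ± 58.6 CPM, ame-miR-996-3p 84.3 ± 7.41 CPM and ame-miR-279b-3p 4.70 ± 1.53 CPM.

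The timing and ageing list held ame-let-7-5p, ame-miR-100-5p, ame-miR-125-5p, ame-miR-34-5p, ame-miR-277-3p and ame-miR-317-3p. These 6 summed to 81763, 78124 and 81969 CPM. The growth and cell death list of 8 summed to 74568, 67522 and 71798 CPM, with ame-miR-14-3p, ame-miR-11-3p, ame-bantam-3p and ame-miR-2-3p above 10000 CPM on average. Its lowest members were ame-miR-278-3p, which affects insulin responses in flies, at 139 ± 13.6 CPM and ame-miR-2b-5p at 1.30 ± 0.0745 CPM. ame-miR-2b-5p is a 5p product that shares its seed, CATCAAA, with miR-2-x and not with ame-miR-2-3p. Of the Hox cluster miRNAs, ame-miR-10-5p averaged 1916 ± 305 CPM and ame-miR-993-3p 196 ± 22.8 CPM. ame-miR-iab-4-5p, which in flies acts on Hox genes of the abdomen, had 0 counts in CK-1 and CK-2 and 3 in CK-3.

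Most counts fell on 3p products. The honeybee list holds 96 entries named 3p and 84 named 5p, and the 3p entries took 87.3% of the honeybee counts while the 5p entries took 12.7% ± 1.31. Of 171 hairpin names, 87 had an annotated 3p product alone, 75 a 5p product alone and 9 had both. Of the 9 with both, 8 had at least 10 counts over the 2 arms in every library. The 3p arm was higher in every library for 5 of these 8 and the 5p arm for 3, and the difference was below 10-fold for 4. The 5p arm of miR-3049 made up 59.99% ± 0.890 of the hairpin's counts and that of miR-3786 27.8% ± 1.24. In miR-92c, by contrast, ame-miR-92c-3p averaged 206 ± 46.4 CPM and ame-miR-92c-5p 1.75 ± 0.396 CPM. ame-miR-2765-3p was at 0 in all libraries beside 51.9 ± 1.28 CPM of ame-miR-2765-5p.

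So few hairpins had both arms annotated that the missing arms were sought among the entries named after miRNAs of other species. Such an entry was taken as the other arm where its name gave the same miRNA and the opposite side and its sequence was not near-identical to a honeybee miRNA. Where several hairpins fitted, the one whose annotated product formed the most stable predicted duplex with it was used. This added 63 entries, and 70 hairpins then had 2 arms and at least 10 counts in each library. The 3p arm was higher in every library for 39, the 5p arm for 29, and 2 differed between libraries. In 12 of the 70 the lower arm was at 0 in all 3 libraries under the names used. This number was 8 when the counts of near-identical entries were summed, because the second arms of miR-79, miR-6039, miR-306 and miR-12 were counted under other names, at 103 ± 7.10, 31.9 ± 1.72, 16.2 ± 0.653 and 0.582 ± 0.0716 CPM. In the other 58, the higher arm exceeded the lower by less than 10-fold in 15, by 10- to 100-fold in 15 and by more than 100-fold in 28, with a median of 91.2-fold.

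Both arms are shown for hairpins with near-equal arms and for 1 in which the arm that carries no honeybee name was the higher, with the seed in capitals. The 2 arms of a hairpin have different seeds, so near-equal arms mean that 2 seeds were present at similar levels.
miR-8-x: cATCTTACcgggcagcattaga
ame-miR-8-3p: tAATACTGtcaggtaaagatgtc
ame-miR-3049-5p: tCGGGAAGgtagttgcggcggat
ame-miR-3049-3p: tCCGTCCAactcctttccgtct
miR-281-x: aAGAGAGCtatccatcgacagt
ame-miR-281-3p: tGTCATGGagttgctctctttgt

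miR-8 had the most similar arms. ame-miR-8-3p had 1639, 2130 and 1709 CPM in CK-1, CK-2 and CK-3, and miR-8-x, on the 5p side, had 1735, 1564 and 1938 CPM. The 3p arm was the higher only in CK-2, and over the 3 libraries the means of the arms differed by less than their spread. miR-316 was the other hairpin without a steady order, with a mean of 28.1 ± 7.60 CPM on the 5p and 36.8 ± 4.11 CPM on the 3p side. ame-miR-3049-5p had 1512, 1251 and 1635 CPM, 1.53-, 1.44- and 1.54-fold above ame-miR-3049-3p, and was the higher arm in every library. The next smallest differences were those of miR-219, 1.52-fold in favour of the 5p arm, and of miR-33, 1.92-fold, and miR-1000, 1.95-fold, both in favour of the 3p arm. With near-identical entries summed, the arms of miR-1000 were closer, 1.26-fold apart (1.46-, 1.14- and 1.21-fold in CK-1, CK-2 and CK-3), since its 5p arm also had the longer entry miR-1000-x.

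In 4 hairpins the arm with the higher mean was the one without a honeybee name, in miR-281, miR-33, miR-1000 and miR-316. Summing near-identical entries added miR-79, whose 5p arm, counted as the predicted m0200-5p, had 110, 103 and 95.5 CPM against 38.9, 47.6 and 34.0 CPM of ame-miR-79-3p. The higher arm of miR-79 thus turned with the summing, from 3p to 5p in every library. miR-281-x had 303, 214 and 200 CPM against 23.3, 20.2 and 16.2 CPM of ame-miR-281-3p, 10.55- to 13.02-fold more and higher in 3 of 3 libraries. miR-1000-y averaged 31.6 ± 0.580 CPM beside 16.2 ± 3.54 CPM of ame-miR-1000-5p, and miR-33-y averaged 46.4 ± 3.56 CPM beside 24.2 ± 4.77 CPM of ame-miR-33-5p. The levels of miR-1000 among the neuronal and of miR-281 among the midgut miRNAs thus refer to their lower arms.

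At the other end stood hairpins whose second arm was hardly counted. Among hairpins with both arms counted, and without summing near-identical entries, the 5 largest differences were those of miR-981, miR-87, miR-277, miR-2796 and miR-184. miR-981-x was counted 2, 2 and 0 times in libraries with 390889, 957993 and 597016 counts of ame-miR-981-3p. With near-identical entries summed, the 5p arm of miR-981 had 215, 350 and 289 counts and the 3p arm was 1859-, 2798- and 2115-fold higher, so miR-981 was no longer among the 5. miR-277-x had 0, 3 and 0 counts and miR-87-x 0, 0 and 2 counts, too few for a ratio. miR-2796-x had 99, 201 and 147 counts, so ame-miR-2796-3p was 15710-, 15688- and 18034-fold higher. ame-miR-184-3p exceeded miR-184-x by 6007-, 8925- and 5647-fold, a range in which the library with the lowest level of miR-184-x was CK-2. The other arm of ame-miR-276-3p, although a small share of the hairpin at 0.165% ± 0.0238, had 409 ± 22.5 CPM, more than most honeybee miRNAs.

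**Figure D3:**
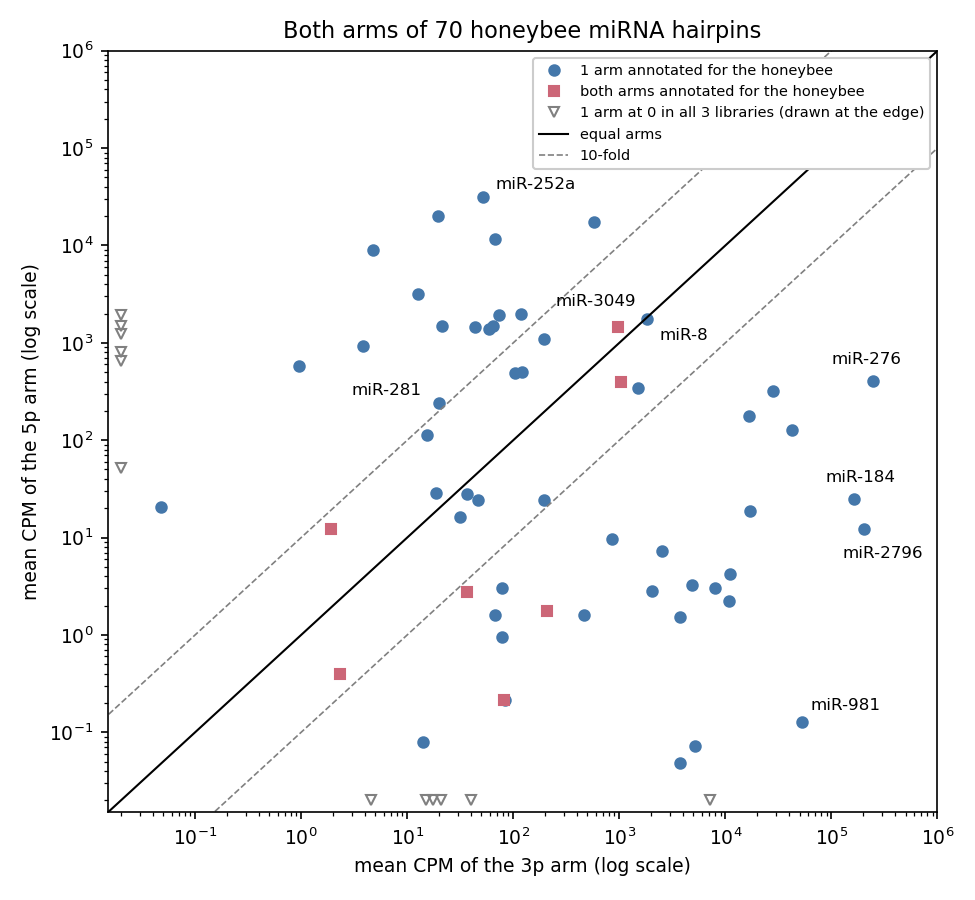
Mean CPM of the 5p arm against that of the 3p arm (both log scales) for 70 hairpins, with the line of equal arms and 10-fold lines. 15 hairpins lie within the 10-fold lines, and the 12 with 1 arm at 0 in all libraries are drawn as open triangles at the edge, all without summing near-identical entries.

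Seeds repeated the concentration seen for single miRNAs. The 663 counted entries carried 522 different seeds, and the leading 3, those of ame-miR-276-3p, ame-miR-2796-3p and ame-miR-184-3p, held 62.0% of the counts. The leading seed, AGGAACT, belonged to ame-miR-276-3p alone and held 24.9% ± 2.11 of the counts. Only 7 seeds were shared by at least 2 counted honeybee miRNAs. The most abundant shared seed, ATCACAG, pairs with the K box, a short element of insect messenger RNAs, and belongs to miRNAs that in flies act on cell death genes. Its honeybee members are shown with the seed in capitals, since they agree there and differ further on.
ame-miR-11-3p: cATCACAGgcagagttctagtt
ame-miR-2-3p: tATCACAGccagctttgatgagc
ame-miR-13b-3p: tATCACAGccatttttgacgatt
ame-miR-13a-3p: tATCACAGccattttgatgag
ame-miR-2944-3p: tATCACAGcagtagttacctggt

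This seed summed to 32749, 31974 and 31431 CPM in CK-1, CK-2 and CK-3 and ranked 6th among seeds. In CPM, its sum varied less between libraries (SD 662 CPM) than its leading member did (SD 813 CPM), ame-miR-11-3p being lowest and ame-miR-2-3p highest in CK-2. This comparison of spreads depends on the scaling too. ame-miR-11-3p gave 53.1% of it, ame-miR-13b-3p had 2553 ± 212 CPM, ame-miR-13a-3p 1483 ± 64.5 CPM and ame-miR-2944-3p 24.6 ± 1.76 CPM. The other shared seeds were those of ame-miR-927a-5p with ame-miR-927b-5p (18229 ± 1284 CPM), ame-miR-275-3p with ame-miR-306-5p (9207 ± 1017 CPM), the miR-279 family with ame-miR-996-3p (4155 ± 583 CPM), ame-miR-283-5p with ame-miR-6041-3p (887 ± 68.5 CPM), ame-miR-92c-3p with ame-miR-92a-3p (226 ± 48.7 CPM) and ame-miR-79-3p with ame-miR-9c-3p (40.5 ± 7.05 CPM). In each of these 6, the leading honeybee miRNA gave more than 50% of the sum.

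The first base was U (T in the deposited letters) in 308 counted entries, or 46.5% of them. Weighted by counts its share was higher, at 69.5% in CK-1, 67.5% in CK-2 and 69.1% in CK-3 (mean 68.7% ± 1.05). G was the first base of 10.1% of the entries and 20.8% ± 2.23 of the counts, most of them on ame-miR-2796-3p. Products of 22 nt held 59.4% ± 2.14 and those of 23 nt 29.4% ± 2.38 of the counts. The 25 nt class held 4.32% ± 0.217, nearly all of it from ame-miR-317-3p, the only counted honeybee miRNA of that length.

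Entries known from other species were in large part end variants of honeybee miRNAs. Near-identical entries were those with at most 1 mismatch over at least 18 shared bases and ends no more than 3 bases apart. By this rule 96 of the 268 counted entries matched a honeybee miRNA, and they held 66.87% ± 1.502 of the counts of the class. The seed was the same in 60 of them, at 15044 ± 1347 CPM in sum, and different in 36, at 1843 ± 80.3 CPM. In most of the 36 the start was shifted, and in miR-306-x, miR-3477-x and miR-6005-x the start was the same and a base of the seed differed. All 132 listed near-identical entries with names in x or y lay on the side their letter states. The counting of reads that fit both entries was the authors', so the split between an entry and its honeybee counterpart depends on that step.

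The most abundant of these entries are set beside their honeybee miRNAs, with the bases that are not in the honeybee sequence at that position in capitals.
ame-miR-184-3p: tggacggagaactgataagggc
miR-184-y: tggacggagaactgataagggAA
ame-miR-263b-5p: cttggcactggaagaattcac
miR-263-x: cttggcactggaagaattcacAGA
ame-miR-71-5p: tgaaagacatgggtagtga
miR-71-x: tgaaagacatgggtagtgaGAT
ame-miR-276-3p: taggaacttcataccgtgctct
miR-276-y: Ctaggaacttcataccgtgctct

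miR-184-y had 7038, 5474 and 7438 CPM in CK-1, CK-2 and CK-3, 4.06% ± 0.576 of the level of ame-miR-184-3p. It was lowest in CK-2, while ame-miR-184-3p had the smallest CV in CPM of all miRNAs that reached 100 CPM. miR-263-x, 3 bases longer than ame-miR-263b-5p, had 2828, 2497 and 2691 CPM and reached 31.4% ± 1.87 of that miRNA. Where the honeybee miRNA was counted, miR-71-x was the only end variant above it (miR-3756-x had 0.145 CPM in CK-3 alone, and ame-miR-3756-5p was at 0). miR-71-x had 1744, 1224 and 1598 CPM where the shorter, 19 nt ame-miR-71-5p had 550, 431 and 522 CPM, so it stood at 304% ± 16.7 of it. miR-276-y and miR-2796-y began 1 base earlier than ame-miR-276-3p and ame-miR-2796-3p, which shifts the seed, and reached 0.223% ± 0.00950 and 0.299% ± 0.0171 of them.

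Among the 63 counted end variants with the same start as the honeybee miRNA, 59 were longer, 2 shorter and 2 of the same length. They ended in A in 41 of 63, compared with 46 of the 168 counted honeybee miRNAs, and in AA in 19 of 63, compared with 7 of 168. Entries of the other-species class with no near-identical honeybee miRNA were led by miR-995-y at 2083, 2130 and 2006 CPM and miR-8-x. miR-995-y carries the seed AGCACCA, the same as ame-miR-29b-3p.

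Predicted miRNAs were mostly rare, 164 of the 227 counted ones having a mean below 1 CPM. The 3 most abundant were m0021-3p at 750, 566 and 675 CPM, m0200-5p at 110, 103 and 95.5 CPM and m0085-5p at 64.0, 49.8 and 68.3 CPM in CK-1, CK-2 and CK-3. Only the first 2 reached 100 CPM. The sequence of m0021-3p is that of miR-71-y, the other arm of ame-miR-71-5p, with 1 base more at the 3′ end, and m0200-5p is the 5p arm of miR-79 named above. All 3 were counted in every library, and 56 of the predicted entries had at least 10 counts in each.

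The libraries agreed closely on the abundant miRNAs. Over the 101 entries with a mean of at least 100 CPM, the median CV (SD as a share of the mean over the 3 libraries) was 10.9%, and 42 entries were below 10%. No entry among them differed by more than 2-fold between CK-2 and another library, and 1 did between CK-1 and CK-3. The Pearson correlation of log2 CPM over these 101 entries was 0.994 for CK-1 with CK-2, 0.996 for CK-1 with CK-3 and 0.994 for CK-2 with CK-3, a description across miRNAs that share library and depth.

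By most of the measures used, CK-2 stood apart from the other 2 libraries. The chi-square of the counts per degree of freedom was 336 between CK-1 and CK-2 and 381 between CK-2 and CK-3, but 33.3 between CK-1 and CK-3. These values are a description that sets the pooled samples against counting error only. By CPM, CK-2 was the lowest library for 54 of the 101 entries and the highest for 29. These numbers depend on the scaling, since the factor of edgeR was lowest for CK-2. Without CK-2, the median CV was 5.47% over the other libraries, whereas it was 11.1% without CK-1 and 11.6% without CK-3. The shares of the top 3 miRNAs and of honeybee miRNAs hardly moved without CK-2, at 61.4% and 97.3%.

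The spread varied between miRNAs. In CPM, the least variable of at least 100 CPM were ame-miR-184-3p (CV 1.93%), ame-miR-3786-3p (2.17%), ame-miR-31a-5p (2.48%), miR-995-y (3.02%) and miR-283-x (3.32%). Such small CVs and their order depend on the scaling, and they were not computed with other factors. ame-miR-31a-5p had 1943, 1881 and 1976 CPM and ame-miR-3786-3p 1054, 1041 and 1010 CPM. The most variable was ame-miR-375-3p, whose vertebrate relative acts in hormone-secreting cells of the pancreas, with a CV of 37.9% at 382, 277 and 172 CPM in CK-1, CK-2 and CK-3. Counting alone would give it a CV of 1.82%. Its end variant miR-375-y, although rare, had the same order of libraries at 2.96, 1.66 and 0.868 CPM.

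ame-miR-981-3p had a CV of 26.8% and its variant miR-981-y one of 23.7%, and both were highest in CK-2. miR-14-x had 272, 263 and 421 CPM (CV 27.9%) and was highest in CK-3, where ame-miR-14-3p from the other arm did not stand out. The remaining members of the 5 most variable were miR-7977-x at 96.5, 183 and 158 CPM (CV 30.5%) and miR-2478-y at 88.7, 135 and 164 CPM (CV 29.3%). Both are 18 nt long, the shortest insert that was kept, and both were lowest in CK-1.

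**Figure D4:**
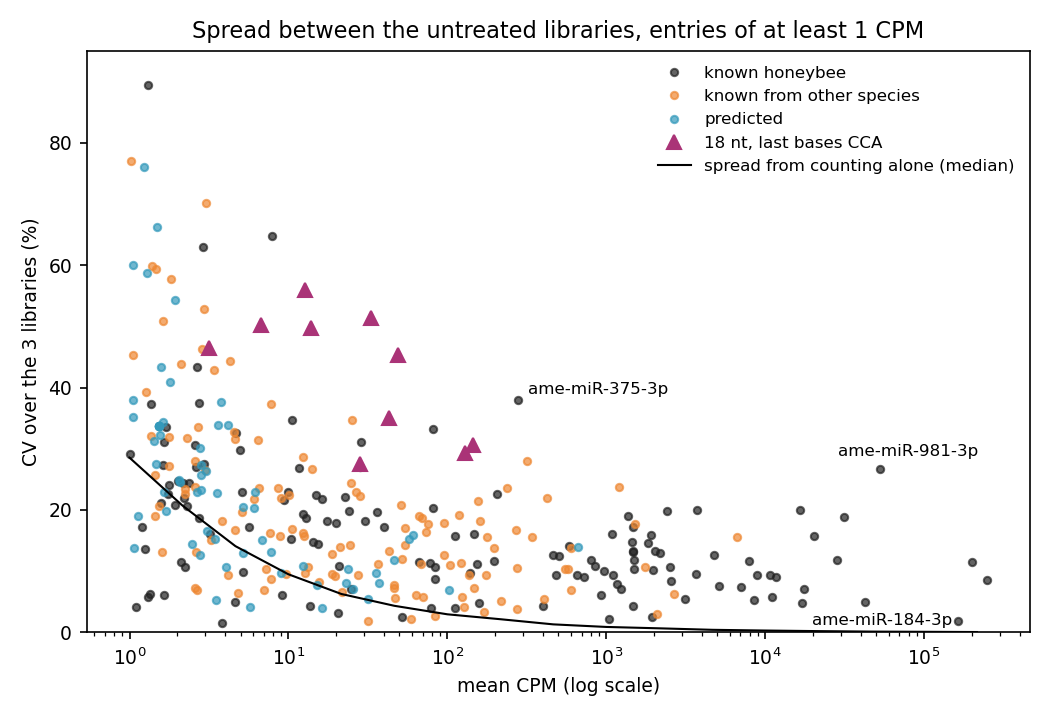
CV over the 3 CK libraries against mean CPM (log scale) for entries of at least 1 CPM, with the spread expected from counting alone as a line. Above 100 CPM most points lie above the line, with a median of 10.9%, ame-miR-375-3p stands highest at 37.9%, and 18 nt entries that end in CCA (triangles) lie at 27.5% or more.

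Hairpins that lie together in the genome were compared last. Of the 171 hairpin names, 166 were placed on linkage groups of Amel_HAv3.1 with RefSeq genes. The span of a protein-coding gene enclosed 103 of them, which held 68.0% ± 1.32 of the counts on placed hairpins, the span of a long non-coding RNA gene alone enclosed 6, and 57 lay within no annotated gene (30.9% ± 1.21 of the counts). Strand and exons were not part of the gene table used here, so these statements refer to position within a gene's span only.

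With gaps of up to 10 kb, 51 hairpin genes formed 18 clusters, of which 17 had at least 2 counted miRNAs. Members of a cluster often differed widely. Comparing the higher annotated arm of each hairpin, the most and the least abundant member were more than 10-fold apart in 10 of the 17 clusters, more than 100-fold in 5, and at most 10-fold apart in 7. In 5 clusters 2 hairpins overlapped each other.

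The let-7 cluster, whose 3 miRNAs act in developmental timing in flies, lies on linkage group 8 (bases 7659889 to 7661163). ame-miR-125-5p averaged 20244 ± 3190 CPM, ame-miR-100-5p 8928 ± 830 CPM and ame-let-7-5p 1505 ± 179 CPM. This order held in every library, and by CPM all 3 were lowest in CK-2. For ame-miR-100-5p the place of CK-2 depends on the scaling. The cluster of miR-2, miR-13 and miR-71 on linkage group 1 (bases 138173 to 140447) lies within the span of LOC726544 and holds 3 copies of miR-2 with the same product, whose counts cannot be divided among them. ame-miR-2-3p was followed there by ame-miR-13b-3p, ame-miR-13a-3p and ame-miR-71-5p at 501 ± 62.5 CPM. With near-identical entries summed, the 5p arm of miR-71 reached 2023 ± 331 CPM and stood above ame-miR-13a-3p. The lowest was ame-miR-2b-5p at 1.30 ± 0.0745 CPM, from a hairpin that lies within the bases of a copy of miR-2. The range of more than 100-fold in this cluster rests on that entry, which may be the other arm of that copy. This was not tested.

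Within no annotated gene on linkage group 15 (bases 6561679 to 6567784), ame-miR-252a-5p averaged 31173 ± 5895 CPM, but ame-miR-252b-5p 30.6 ± 5.58 CPM, and ame-miR-6057-5p had counts in CK-1 and CK-3 alone at 0.237 and 0.362 CPM. ame-miR-277-3p (5159 ± 392 CPM), ame-miR-34-5p (1981 ± 203 CPM) and ame-miR-3730-5p (22.7 ± 5.01 CPM) lie within 4756 bases on linkage group 5. ame-miR-317-3p, whose hairpin lies in the same gene span of LOC102655904 but farther away than the gap allowed, was above all of them at 42802 ± 2145 CPM. ame-miR-275-3p and ame-miR-305-5p, 323 bases from end to end on linkage group 4, differed 7.14-fold.

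Other clusters were even. On linkage group 2 (bases 4840914 to 4842278), ame-miR-12-5p averaged 1472 ± 194 CPM, ame-miR-3477-5p 921 ± 57.0 CPM and ame-miR-283-5p 655 ± 60.9 CPM, in that order in every library. ame-miR-9864-5p and ame-miR-6045-5p, also on linkage group 2, averaged 10.5 ± 3.64 and 10.4 ± 1.58 CPM, a difference within their spread. ame-miR-6047a-3p and ame-miR-6047b-3p come from overlapping hairpins on linkage group 3 and averaged 36.3 ± 7.12 and 14.2 ± 2.10 CPM.

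**Figure D5:**
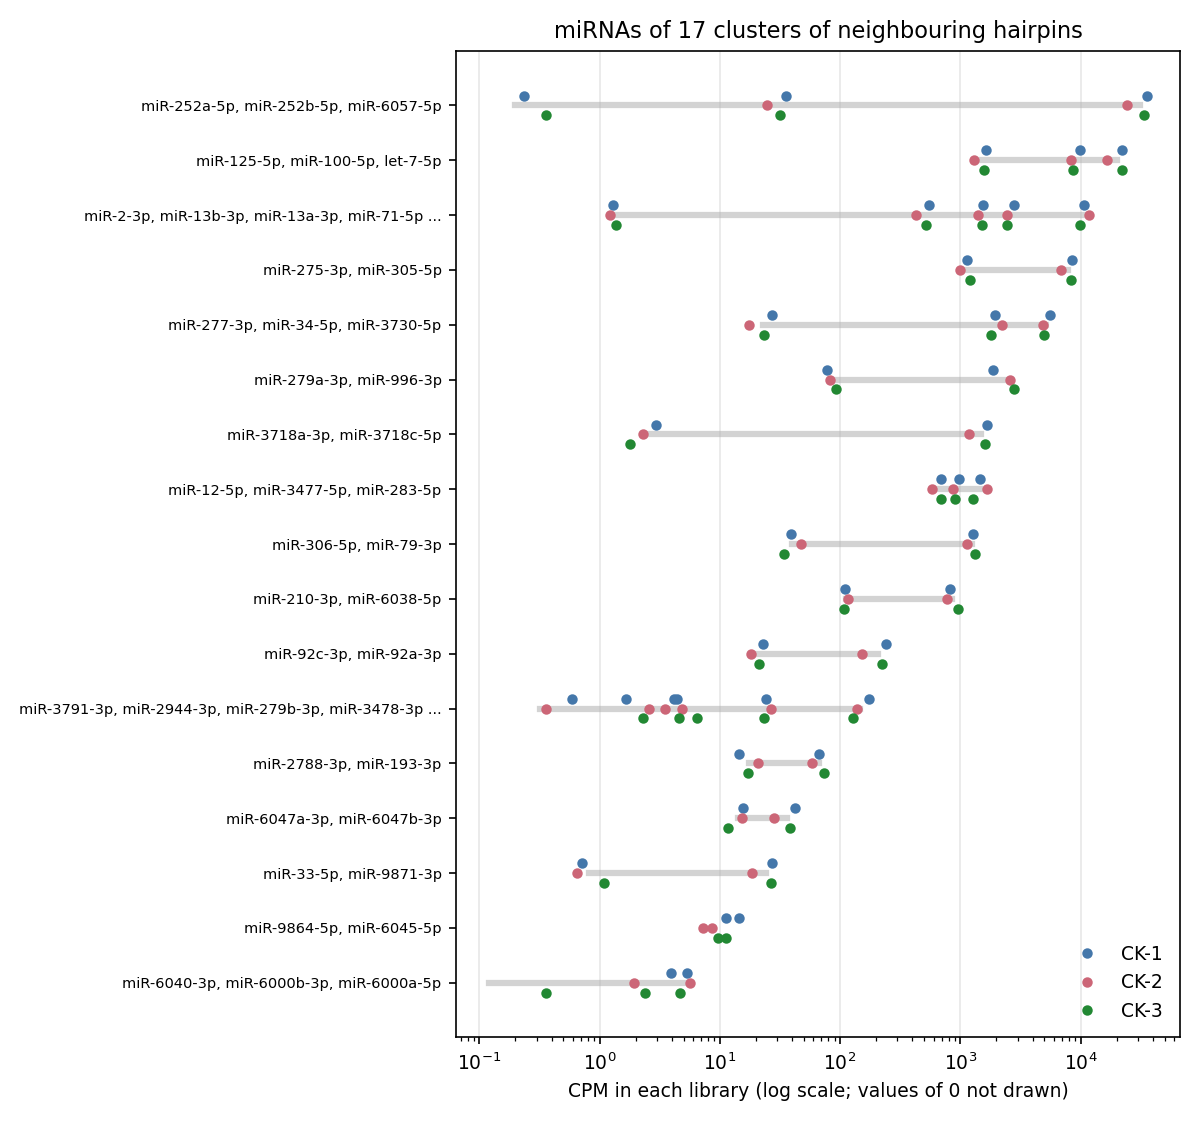
CPM (log scale) in CK-1, CK-2 and CK-3 of the miRNAs of 17 clusters of neighbouring hairpins, 1 row per cluster, with a grey bar between the lowest and the highest mean. The bar covers less than 10-fold in 7 rows, such as that led by ame-miR-12-5p, and more than 100-fold in 5, such as that of ame-miR-252a-5p.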

How the data were processed

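The authors made small RNA libraries of RNA from 18 nt upward and removed inserts under 18 nt, polyA reads, tags read fewer than 2 times, tags of rRNA, tRNA and the like, and tags mapped to repeats, introns or exons. They assigned the remaining reads with Bowtie to honeybee miRNAs, to miRNAs of other species in miRBase and to hairpins predicted with MIREAP. For every library, the authors gave each miRNA entry a raw count, which was deposited without normalization. The deposited TPM is that count scaled to a larger library total, with 0 counts written as 0.01, and was 0.919, 0.926 and 0.915 of the CPM in CK-1, CK-2 and CK-3. The smallest count above 0 was 2.

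CPM, SD, CV, shares, seeds and arm ratios were computed from the counts with Python 3.11.15, numpy 2.4.6, pandas 2.3.3 and scipy 1.17.1. The part of the CV beyond counting error was checked on simulated counts, and the search for near-identical entries on planted sequences. Duplex energies came from RNAduplex (ViennaRNA 2.7.2) and were between -38.0 and -13.1 kcal/mol for the pairs used. Scaling factors came from edgeR 4.0.16 and DESeq2 1.42.0 (R 4.3.3). Positions were taken from RefSeq genes of Amel_HAv3.1, to which the authors also mapped. Mature sequences are from the deposited files.

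The text names the 25 most abundant miRNAs, the 5 largest and 5 smallest arm differences and any arm that changed, the 5 largest and smallest CVs from 100 CPM, the 3 most abundant entries of each other class, the role lists and the clusters. Other names were chosen after their values were seen. Predicted miRNAs are named by number, without the class prefix. Clusters were meant to lie on 1 strand, which the gene table does not give. Members and lists were chosen with earlier results of these data known. Alternatives left out each library, used the authors' larger total, summed near-identical entries, kept honeybee miRNAs alone, and changed minimums and scaling. The treated libraries were not used here.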

Additional observations from a re-analysis of the deposited data

How the results depend on the processing

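No paired analysis was possible because the 3 libraries form 1 group and no test was run. Of 63 alternative values of 10 results, 45 stayed within a set limit and 18 moved. The limit was the SD over libraries for shares and 1.5 times for counts. For the median CV it was the SD of the values obtained by leaving out each library. That limit was wide because of the value without CK-2, so staying within it says little. Leaving out each library moved the median CV between 5.47% and 11.6%, the low value being that without CK-2. With the authors' larger total, the share of the top 3 miRNAs was 56.4%, that of honeybee miRNAs 89.5% and that of miRNAs beginning with U 63.2%, since the same counts were divided by a larger number. The top-3 share was 62.1% with near-identical entries summed and 63.0% over honeybee miRNAs alone. Hairpins with a higher 3p arm, a higher 5p arm and arms within 10-fold numbered 2, 1 and 2 with at least 1000 counts over both arms, and 39, 29 and 15 with entries of other species added. Chosen after seeing the data, summing near-identical entries as well gave 38, 30 and 16, and the added entries with at least 1000 counts gave 24, 25 and 9. The number of entries counted in all libraries was 455, and 425 expected at the depth of CK-1, so that part of the tail depends on depth. With 3 pooled libraries, an SD is itself uncertain.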

Other observations

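Entries of 18 nt, the shortest length kept and all from other species, varied between the libraries more than most others of their level. Most of their counts were on entries that end in CCA, which is also the last triplet of mature tRNAs, and whether these reads came from tRNA was not tested. Of 22 such entries listed, 12 were counted and 10 were counted in all 3 libraries. All 10 were lowest in CK-1, and 8 of them were highest in CK-2. Together the 22 had 299 CPM in CK-1, 585 CPM in CK-2 and 511 CPM in CK-3. The 18 nt entries that do not end in CCA had 6.39, 18.4 and 14.9 CPM in CK-1, CK-2 and CK-3. Of the 31 counted, 27 were lowest in CK-1, alone or tied with another library. Just 5 of the 31 were counted in all 3 libraries, and CK-1 was the library of lowest depth. The number 27 therefore says little about the order of the libraries for single entries. The 5 counted longer entries from other species that end in CCA summed to 148, 145 and 204 CPM, so their sum had another order. Most of it was miR-3968-y, at 141, 134 and 195 CPM, whose sequence ends in that of miR-2478-y. By entry, 3 of the 5 were lowest in CK-1 and 3 were highest in CK-2. Among the 190 entries of at least 10 CPM, 8 were 18 nt entries that end in CCA, with CVs of 27.5% or more. The median CV of the others was 11.6%. These entries were singled out after their values were seen. The 4 most abundant are shown with the CCA in capitals.
miR-7977-x: ttcccggccatcgcaCCA
miR-2478-y: atcccactcctgacaCCA
miR-7975-y: atcctggtcacggcaCCA
miR-9993-y: atctcggtgggacctCCA

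Some entries carry the same sequence under different names. Of 7 such sets with counts, 3 had the same count under every name, as in 6 predicted loci with 15, 13 and 26 counts each in CK-1, CK-2 and CK-3. In the other 4 the counts differed, as for miR-252-x and miR-251-x, where miR-252-x held 80.6%, 80.7% and 83.2% of the counts of the pair. miR-283-x and miR-216-x were divided in a like way, with 79.3%, 78.7% and 77.8% on miR-283-x.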
